A study of Rattus norvegicus with 10 samples.

Results

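The genes described here are 34 genes that the study's ChIP-seq placed near Creb3l1 binding and that belong to at least 1 of 27 KEGG pathway lists drawn from those targets. The lists hold 310 distinct genes, and the 34 are those whose symbol could be paired with an identifier in the RNA-seq count table of 32402 genes. That pairing came from the study's table of differential expression, of which the part held here has the genes with the smallest adjusted p values for the knockdown. The 34 genes were therefore chosen by the same contrast in which they are described, so their levels are given as a description with no test, and the other 276 genes of the lists could not be named. Male Sprague-Dawley rats of 250 to 274 g received, in the supraoptic nucleus (SON) of one side, an adeno-associated virus carrying a short hairpin RNA (shRNA) against Creb3l1, and in the SON of the other side the same kind of virus with a non-targeting control shRNA. After 3 weeks, poly(A) RNA was sequenced from 5 control and 5 knockdown SONs of 5 animals, taken as punches of frozen brain sections. Food and water were freely available per the labels, whereas the ChIP-seq that defined the lists used pooled SONs and paraventricular nuclei of water-deprived rats. Control virus went to the left side and knockdown virus to the right side in each of the 5 animals, so side and treatment cannot be told apart. The promoter that drives the hairpins is not given in the sources used here, and the punch holds glia and other neurones besides the transduced cells.

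Creb3l1 is a transcription factor made as a membrane protein of the endoplasmic reticulum (ER) and released by cleavage to act in the nucleus. The magnocellular neurones of the SON make the peptide hormones vasopressin and oxytocin in large amounts, and every hormone precursor passes through the ER to be translocated, folded and exported in vesicles. When folding falls behind, the unfolded protein response raises ER chaperones and, through the kinase PERK, slows the start of translation. The 34 genes hold parts of this route and of the machinery that feeds it. They run from transcription and mRNA processing to tRNA, ribosomes, folding, transport and degradation. Others encode mitochondrial proteins or kinases.

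Promoter sequences are shown first, because binding near the start site is what the lists share. A sequence does not depend on the knockdown, but which listed genes are members does. Nothing is therefore read from differences in motif shares between members and other listed genes. Of the 34 genes, 29 were matched by symbol to RefSeq promoters of the rat build GRCr8, each 250 bases before to 50 bases after the start. Vdac3, Polr3d, Xpot, Sec24c and Htra2 were not matched. The 250 bases before the start are printed 5′ to 3′ on the strand of the gene for Hspa5 and Canx, which hold the ER stress response element, for Polr3c and Exosc5, which hold CACGTG and were lower after knockdown, and for Ppif, the member with the largest positive fold change. Capitals mark the letters of the motifs searched.
Hspa5 chr3:38452766-38453015 (plus strand): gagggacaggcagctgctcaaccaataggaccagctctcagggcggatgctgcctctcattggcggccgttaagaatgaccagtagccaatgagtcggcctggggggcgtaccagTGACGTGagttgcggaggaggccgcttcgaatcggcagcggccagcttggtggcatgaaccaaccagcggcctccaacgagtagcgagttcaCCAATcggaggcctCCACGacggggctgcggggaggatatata
Canx chr10:35157858-35158107 (minus strand): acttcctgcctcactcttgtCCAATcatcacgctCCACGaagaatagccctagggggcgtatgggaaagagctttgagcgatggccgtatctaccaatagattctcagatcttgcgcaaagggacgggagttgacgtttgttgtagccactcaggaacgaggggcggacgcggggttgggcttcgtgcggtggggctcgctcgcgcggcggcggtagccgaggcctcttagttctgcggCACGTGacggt
Polr3c chr2:186950963-186951212 (minus strand): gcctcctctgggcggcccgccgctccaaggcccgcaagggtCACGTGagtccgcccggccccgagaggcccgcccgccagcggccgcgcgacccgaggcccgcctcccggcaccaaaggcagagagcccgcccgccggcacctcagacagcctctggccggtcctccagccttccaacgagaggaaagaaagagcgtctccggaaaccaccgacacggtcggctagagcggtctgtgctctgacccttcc
Exosc5 chr1:90295659-90295908 (plus strand): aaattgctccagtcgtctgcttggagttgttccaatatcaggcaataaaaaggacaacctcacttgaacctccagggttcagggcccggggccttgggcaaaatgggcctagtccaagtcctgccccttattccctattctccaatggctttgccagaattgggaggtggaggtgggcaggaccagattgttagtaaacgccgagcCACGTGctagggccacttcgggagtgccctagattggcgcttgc
Ppif chr16:1263751-1264000 (plus strand): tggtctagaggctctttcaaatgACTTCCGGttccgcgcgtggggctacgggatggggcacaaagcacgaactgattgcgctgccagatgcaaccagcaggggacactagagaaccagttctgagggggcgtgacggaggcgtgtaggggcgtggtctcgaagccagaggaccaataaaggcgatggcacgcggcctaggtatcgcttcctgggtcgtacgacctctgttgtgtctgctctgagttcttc

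The motifs, 6 in all, were searched on both strands. They were the G-box core CACGTG, the cyclic AMP response element-like core CACGTCA, the GC box CCCCGCCCC, the Ets core CCGGAAGT, the letters ATTCCCA from another motif the study discusses, and the ER stress response element, which is CCAAT followed after 9 bases by the letters CCACG. The end of the ER stress response element can overlap the start of the G-box core or of the response element-like core. Apart from the ER stress response element, the letters come from motifs that the study found by searching ChIP-seq peaks. Those peaks were of this ChIP-seq or of a public Creb3l1 ChIP-seq in human cells. A higher share among listed genes than among all promoters was thus partly fixed in advance, and nothing is read from it. In the promoter of Hspa5 the exact letters of the ER stress response element lay 43 to 25 bases before the start. CACGTCA was read on the opposite strand, as TGACGTG, 135 to 129 bases before the start. Sites that differ from the exact letters were not searched. In the promoter of Canx the ER stress response element lay 230 to 212 bases and CACGTG 11 to 6 bases before the start. These 2 of 29 members (6.9%) stood beside 3 of the other 221 matched genes of the lists (1.36%) and 18 of all 24206 promoters with a symbol of their own (0.0744%). Both genes had higher means in the knockdown SONs, but neither had an edgeR adjusted p under 0.05, and the groups of Hspa5 overlapped.

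CACGTG was found in 6 of 29 members (20.7%), in 23 of the other 221 genes of the lists (10.4%) and in 1631 of 24206 promoters (6.74%). Exosc5, Polr3c, Rpp38 and Rps2, which were lower after knockdown, and Canx and Prpf19, which were higher, held CACGTG. The level of the identifier named Rps2 is uncertain, as given below, so its direction may not be that of the gene with this promoter. CACGTG was not tested for a link with direction. CACGTG lay 209 to 204 bases before the start in Polr3c and 44 to 39 bases before it in Exosc5. CCGGAAGT was in 6 of 29 members (20.7%), in 42 of 221 other listed genes (19%) and in 1008 of all promoters (4.16%). It was held by Hars2 and Rnmt, which were lower, and by Ddx39b, Polr3b, Ppif and Slu7, which were higher. In Ppif it lay 227 to 220 bases before the start, on the opposite strand. CCCCGCCCC was in Gsk3a and Sympk alone among the members (6.9%), against 17.2% of the other listed genes and 10.8% of all promoters. ATTCCCA was in 0 of 29 members, in 5.88% of the other listed genes and in 4.81% of all promoters. CACGTCA was in Hspa5 alone among the members (3.45%), against 2.71% and 1.92%. In all, 15 of the 29 promoters held at least 1 of the motifs and 14 held none. A motif is a match of letters in this window and was not tested as a binding site. No motif was limited to the members of 1 direction except those found in 1 or 2 members.

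Total counts were between 29754252 and 34382889 in the control SONs and between 29020948 and 33612965 in the knockdown SONs. Levels are given as CPM, the read count as a share of the library total on a scale common to all SONs, with TMM factors that correct for library composition. Values of single SONs are in the order of animals 1 to 5, and log2 fold changes are knockdown against control from edgeR with their standard error (SE, n = 5 per group). Other levels are group means ± SD (n = 5). The size of a CPM depends on the length of the gene, so levels are compared between groups and not between genes. Creb3l1 was at 20.3, 26.5, 30.7, 33.5 and 23.4 CPM in the control SONs and at 7.10, 13.8, 8.69, 16.7 and 13.6 CPM in the knockdown SONs. The highest knockdown SON stood under the lowest control SON, with a log2 fold change of -1.16 ± 0.24 (edgeR quasi-likelihood test, adjusted p = 0.0173, and adjusted p = 0.0586 in the fit with the animal as a block). In punches of tissue, fewer cells of a type and less RNA per cell cannot be told apart. Sim1, a transcription factor of magnocellular neurones and their only other marker that could be named, was at 52.7, 58.5, 44.5, 72.8 and 48.0 CPM and at 23.0, 18.6, 35.3, 29.9 and 15.6 CPM, lower in the 5 knockdown SONs as well. Sim1 could be named only because it is among the genes with the smallest adjusted p values for the knockdown. Avp and Oxt, and the markers listed for other neurones, glia, microglia and endothelium, were not among the named genes. The part of cell number in the levels below was not tested.

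Of the 34 members, 17 were lower and 17 higher in the knockdown SONs. Log2 fold changes ran from -0.86 for Rps2 (0.55-fold) to 0.60 for Ppif (1.52-fold), and 6 members had a size of 0.5 or more. The median size was 0.34, against 0.20 for all 16286 genes tested, and the median of all genes was 0.04. A gene with an adjusted p under 0.05 over all genes tested is called past the threshold. With edgeR, 18 of the 34 members were past it, 10 lower and 8 higher, beside a background of 7.86% of all genes tested, 4.49% lower and 3.36% higher. Groups did not overlap for 24 members (70.6%), beside 9.65% of all genes. The direction was the same in all 5 animals for 32 members, beside 20.0% of all genes. Because the members were chosen by this contrast, nothing is read from the distance between these shares and the background. The same holds for the counts by role below. With DESeq2, the test by which the held genes had been ranked, 34 of 34 members were past the threshold, beside 11.7% of all genes. With the animal as a block the count was 0 of 34, beside 0.0553% of all genes, although 30 of 34 had an unadjusted p under 0.05, beside 18.4%. Scaling by library size alone put 21 members past the threshold (beside 9.09% of all genes), 5 of them higher, and over all genes 349 of 1480 calls were higher against 548 of 1280 with TMM. The 18 calls fell to 10 without control replicate 2 (beside 4.98% of all genes), to 6 without control replicate 3 (3.40%), to 7 without control replicate 5 (3.73%), to 4 without knockdown replicate 1 (3.17%) and to 8 without knockdown replicate 2 (3.74%). The share called over all genes was thus lower than 7.86% in each of these fits too. Eif2ak3, Gsk3a, Polr3d and Ppif kept their call whichever of the 10 SONs was left out. Those fits did not pair the left and right SON of an animal. When edgeR paired them, the adjusted p values of these genes were 0.0695, 0.092, 0.0583 and 0.0723, so each call was lost. How many of all genes kept a call in every such fit was not counted, so nothing is read from these 4.

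**Figure D1:**
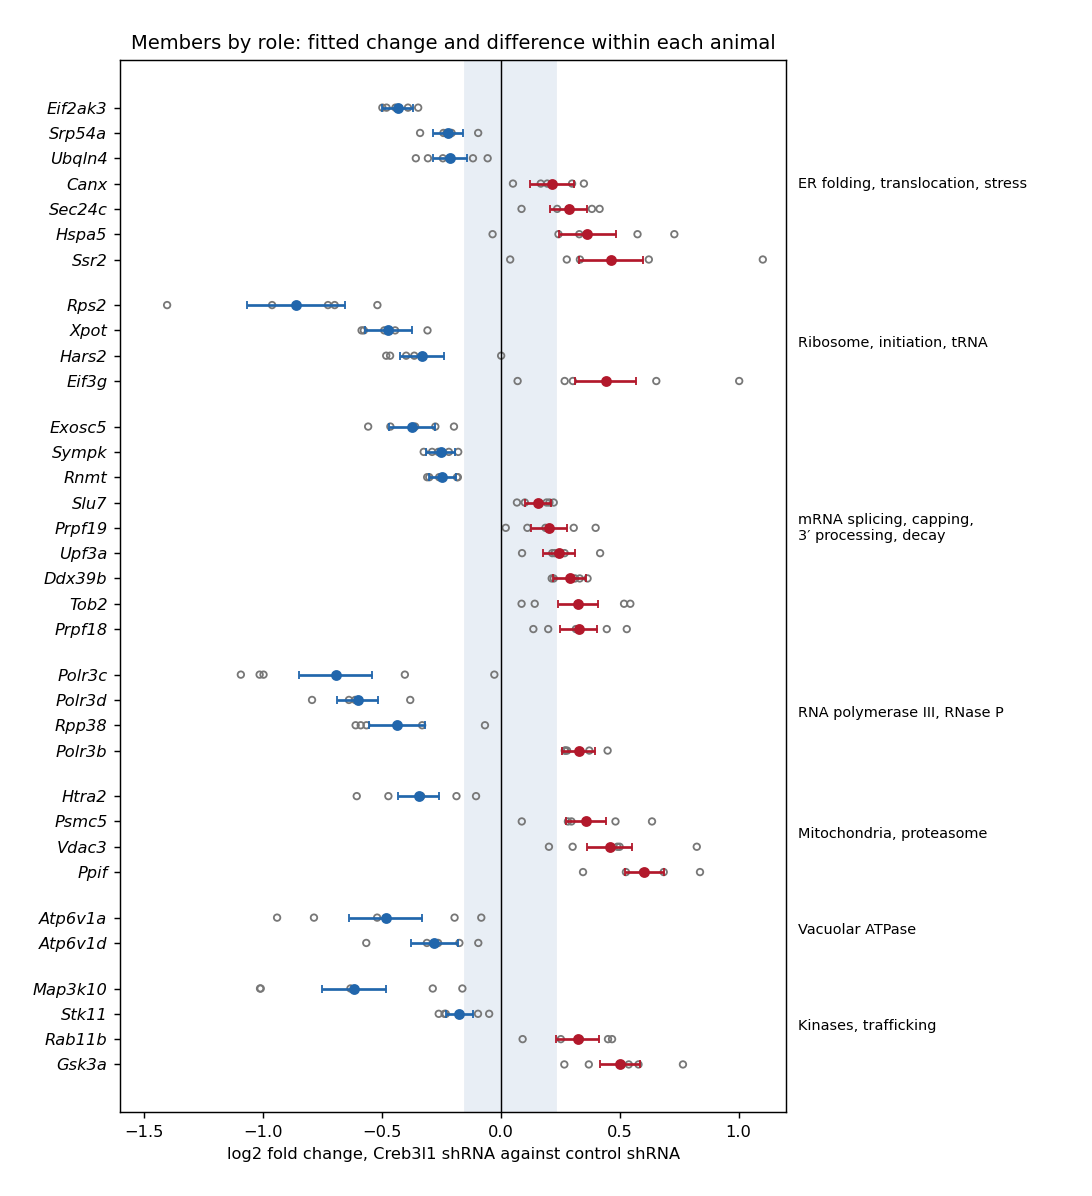
Log2 fold change of the 34 members, Creb3l1 shRNA against control shRNA, grouped by role on the vertical axis. Filled points with bars are the edgeR estimate ± SE (blue lower, red higher), open circles are the log2 differences between the SONs of each of the 5 animals, and the shaded band spans the quartiles of all genes tested (-0.15 to 0.23). The open circles of 32 members lie on 1 side of 0, the exceptions being 1 circle each of Hspa5 and Hars2.

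Of the 7 ER members, Eif2ak3, Srp54a and Ubqln4 were lower and Canx, Sec24c, Hspa5 and Ssr2 were higher in the knockdown SONs. With edgeR only Eif2ak3 of these 7 was past the threshold, beside 7.86% of all genes, and none of the 4 higher members was. Eif2ak3, which encodes the ER stress kinase PERK, was at 54.1, 48.2, 49.2, 57.1 and 53.0 CPM in the control SONs and at 39.8, 36.8, 38.6, 40.9 and 37.5 CPM in the knockdown SONs. Its groups were separated by a gap, and the knockdown SONs lay close to each other. The log2 fold change was -0.43 ± 0.07, a level of 0.74 times control.

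Hspa5, which encodes BiP, the main Hsp70 chaperone of the ER lumen, was at 521, 394, 443, 371 and 388 CPM in the control SONs and at 509, 466, 556, 614 and 578 CPM in the knockdown SONs. Control SON 1 was the highest of its group and exceeded 2 of the knockdown SONs, and animal 1 was the only one with a lower value on the knockdown side. The log2 fold change of Hspa5 was 0.36 ± 0.12. Without single SONs it ranged from 0.30 to 0.42. In separate samples, the study's qRT-PCR bore out changes of Eif2ak3, Ssr2 and Ubqln4 but not of Hspa5.

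Canx, which encodes calnexin, a membrane chaperone of glycoproteins, had 959, 882, 942, 934 and 938 CPM under control shRNA and 1080, 1010, 1160, 1190 and 972 CPM under Creb3l1 shRNA. Control SONs were tightly grouped, knockdown SONs were spread more widely, and the lowest knockdown SON was just above the highest control SON. Its log2 fold change was 0.22 ± 0.09.

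Ssr2, a subunit of the complex that assists the translocon, was at 80.5, 61.3, 69.4, 47.6 and 62.2 CPM and at 82.7, 77.2, 84.2, 102 and 95.8 CPM in the 2 groups. Its lowest control and highest knockdown SONs came from animal 4, control SON 1 lay within the knockdown range, and animal 1 differed little between sides. The log2 fold change of Ssr2 was 0.46 ± 0.13, the largest among the ER members. Sec24c, the cargo-selecting subunit of the COPII coat that leaves the ER, was at 130, 117, 122, 124 and 112 CPM in control and 153, 142, 129, 165 and 146 CPM in knockdown SONs. Only knockdown SON 3 fell inside the control range, and the log2 fold change was 0.28 ± 0.08.

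Ubqln4, a ubiquilin that brings ubiquitylated proteins to the proteasome, had 103, 107, 113, 111 and 110 CPM on the control side and 94.8, 86.8, 88.2, 107 and 93.3 CPM on the knockdown side. Knockdown SON 4 reached the control range and the other 4 were below it, with a log2 fold change of -0.21 ± 0.07. Srp54a, the subunit of the signal recognition particle that binds signal peptides, was at 78.9 ± 3.58 CPM in the control group and 67.7 ± 3.49 CPM in the knockdown group (SD, n = 5 each). Its groups did not overlap, and its log2 fold change was -0.22 ± 0.06. Of the genes listed for the PERK arm, the ER chaperones, the calnexin cycle, the translocon-associated complex, the COPII coat and the ubiquilins, no gene other than these members could be named.

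**Figure D2:**
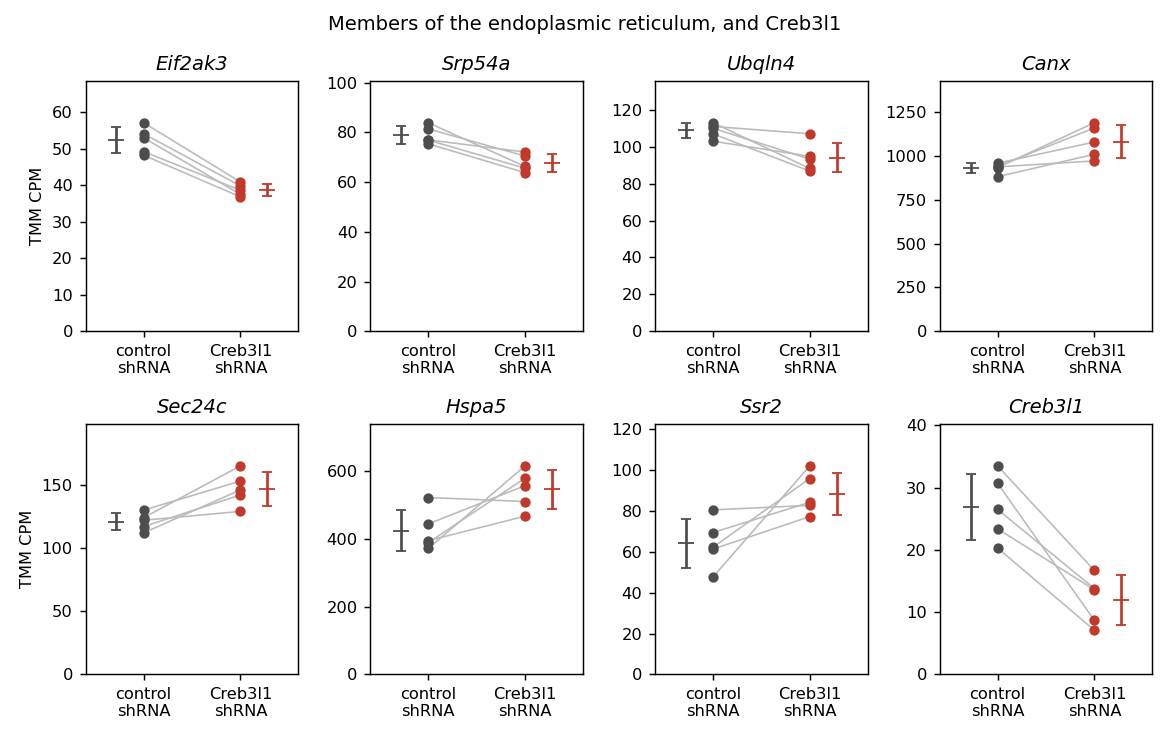
TMM CPM on the vertical axis (starting at 0) of the 7 ER members and of Creb3l1 in each SON. Grey lines join the 2 SONs of an animal, and the bars beside the points are mean ± SD (n = 5). Eif2ak3, Srp54a and Creb3l1 were lower in every knockdown SON than in any control SON, Canx was higher, and Ubqln4, Sec24c, Hspa5 and Ssr2 overlapped.

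Genes for RNA polymerase III, which transcribes tRNA and other short RNAs, did not share a direction. Of the 4 members of this group, Rpp38 included, edgeR put 2 of the 3 lower ones and the 1 higher one past the threshold. The shares of all genes called were 4.49% lower and 3.36% higher. Polr3c, a subunit that helps the enzyme to start transcription, was at 37.8, 33.9, 37.7, 28.8 and 28.6 CPM in the control SONs and at 17.7, 16.8, 18.9, 21.7 and 28.1 CPM in the knockdown SONs. Animal 5 had nearly equal sides, and the highest knockdown SON stayed just below the lowest control SON. The log2 fold change of Polr3c was -0.69 ± 0.15, ranging from -0.86 to -0.63 when single SONs were left out.

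Polr3d, a subunit specific to this polymerase, had 42.9, 39.1, 41.7, 37.6 and 39.7 CPM under control and 24.8, 25.1, 32.0, 24.8 and 25.9 CPM under Creb3l1 shRNA. Knockdown SON 3 stood above the other 4 knockdown SONs and below all control SONs, and the log2 fold change was -0.60 ± 0.09. Polr3b, the second-largest subunit and part of the catalytic centre, was at 20.4, 19.4, 20.9, 18.3 and 18.2 CPM and at 24.6, 23.4, 25.4, 25.1 and 23.6 CPM, higher in every knockdown SON than in any control SON. Its log2 fold change was 0.33 ± 0.07. Rpp38, a protein of RNase P, which trims tRNA precursors, was at 10 ± 1.15 CPM in the control group and 7.43 ± 0.840 CPM in the knockdown group (SD, n = 5 each), with groups that did not overlap and a log2 fold change of -0.44 ± 0.12. Of the 10 subunits listed for RNA polymerase III, 1 more could be named. Polr3f, which forms a subcomplex with Polr3c, was at 40.3, 40.8, 39.7, 41.7 and 36.8 CPM and at 36.0, 33.3, 35.0, 35.7 and 31.8 CPM, lower in the 5 knockdown SONs, with a log2 fold change of -0.21 ± 0.06. Polr3f is named by the same ranking and is likewise a description.

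The 2 members of the vacuolar ATPase, the pump that acidifies secretory granules and lysosomes, were both lower, and neither was past the threshold with edgeR. Atp6v1a, the catalytic subunit, was at 416, 547, 515, 533 and 530 CPM in control and at 364, 381, 486, 309 and 276 CPM in knockdown SONs. Control SON 1 stood below its group, knockdown SON 3 stood above its own, and these 2 SONs made the groups overlap. The log2 fold change of Atp6v1a was -0.48 ± 0.15.

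Atp6v1d, of the central stalk, had 212, 245, 216, 192 and 228 CPM on the control side and 176, 198, 203, 170 and 154 CPM on the knockdown side. Each animal was lower on the knockdown side and the groups overlapped, with a log2 fold change of -0.28 ± 0.10. Atp6v1d had the largest adjusted p of the members in the DESeq2 fit made here (0.0399). Its place in the study's own ranking, which set the limit of the held genes, was not read. The gene just beyond that limit could not be named. Atp6v1c1, a peripheral stalk subunit that is no member, was at 228, 263, 246, 222 and 235 CPM and at 145, 150, 197, 128 and 127 CPM. Its groups did not overlap and its log2 fold change was -0.68 ± 0.12. Atp6v1c1 is named by the same ranking and is likewise a description. The 3 named subunits of the 9 listed for the V1 part were all lower, and the others could not be named.

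**Figure D3:**
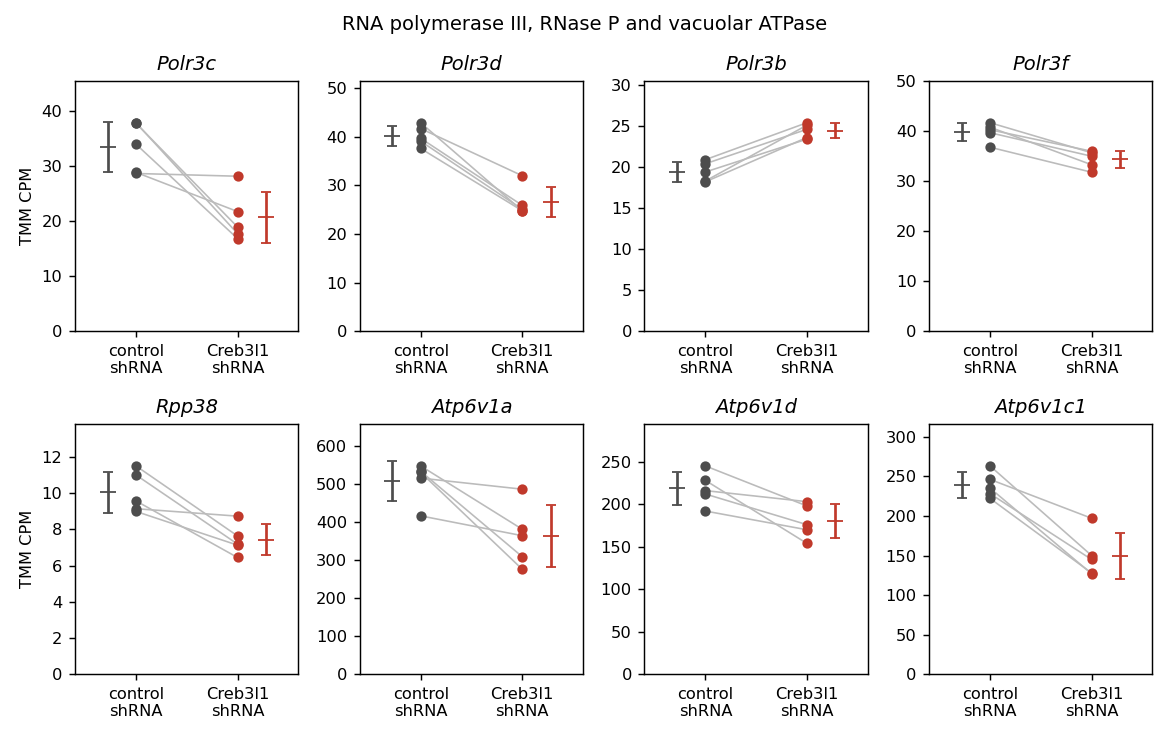
TMM CPM on the vertical axis (starting at 0) in each SON for the named subunits of RNA polymerase III (Polr3c, Polr3d, Polr3b and Polr3f), for Rpp38, and for the named subunits of the vacuolar ATPase. Grey lines join the SONs of an animal and bars are mean ± SD (n = 5). Polr3b alone was higher in the knockdown SONs, and Polr3f and Atp6v1c1 are not members.

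Among the genes of ribosomes, initiation and tRNA, 3 were lower and 1 was higher. With edgeR, Rps2 and Xpot were past the threshold, beside 7.86% of all genes, and Hars2 and Eif3g were not. The identifier named Rps2, a protein of the small ribosomal subunit, was at 1.66, 1.85, 1.64, 1.53 and 1.94 CPM in the control SONs and at 1.14, 1.12, 0.965, 0.541 and 0.968 CPM in the knockdown SONs. The groups were apart, knockdown SON 4 was the lowest, and the log2 fold change was -0.86 ± 0.21, the largest size among the members. This identifier had as few as 15 counts in a SON, whereas the other 33 members had at least 100 in every SON. RefSeq names 36 Rps2 pseudogenes in the rat, so reads of near-identical copies may be shared between them and the level of Rps2 is uncertain.

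Xpot, the exportin that carries tRNA out of the nucleus, was at 121, 117, 122, 135 and 115 CPM and at 81.2, 78.1, 89.5, 109 and 81.8 CPM. Its groups did not overlap, knockdown SON 4 was the nearest to the control range, and the log2 fold change was -0.47 ± 0.10. Hars2, the mitochondrial histidyl-tRNA synthetase, was at 64.8 ± 2.08 CPM in the control group and 51.5 ± 7.52 CPM in the knockdown group (SD, n = 5 each). Animal 4 had nearly equal levels of Hars2 on both sides, the other 4 animals were lower on the knockdown side, and the log2 fold change was -0.33 ± 0.09. Eif3g, a subunit of the initiation factor that loads the small ribosomal subunit, was at 103, 84.5, 85.6, 59.6 and 75.8 CPM in the control SONs and at 108, 104, 103, 119 and 119 CPM in the knockdown SONs. Control SON 1 reached the lower edge of the knockdown group without passing it, control SON 4 was the lowest of all, and the log2 fold change was 0.44 ± 0.13.

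Of the 9 mRNA processing members, 3 were lower and 6 higher. With edgeR, 3 in each direction were past the threshold, beside 4.49% of all genes lower and 3.36% higher. The 4 members on the KEGG list Spliceosome were all higher, of which Ddx39b and Prpf18 were past the threshold. Prpf18, which acts in the second step of splicing, was at 44.9 ± 3.25 CPM in the control group and 56.4 ± 4.63 CPM in the knockdown group, with a log2 fold change of 0.33 ± 0.08. Ddx39b, an RNA helicase of splicing and mRNA export, was at 292 ± 9.21 CPM in the control group and 358 ± 17.6 CPM in the knockdown group, with 0.29 ± 0.07 on the log2 scale. Prpf19, a ubiquitin ligase of the spliceosome, was at 279 ± 19.9 CPM in the control group and 321 ± 11.6 CPM in the knockdown group, with a log2 fold change of 0.20 ± 0.08. For these 3 genes the groups did not overlap, beside 9.65% of all genes. Slu7, which helps to choose the 3′ splice site, was at 63.4 ± 2.61 CPM in the control group and 70.7 ± 2.14 CPM in the knockdown group, the smallest fold change of all members at 0.16 ± 0.06, and its groups overlapped.

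The 3 lower members were Rnmt, Sympk and Exosc5. Each was past the threshold with edgeR, beside 4.49% of all genes called lower. Rnmt, which methylates the cap, was at 65.8 ± 1.42 CPM in the control group and 55.5 ± 2.82 CPM in the knockdown group, with a log2 fold change of -0.25 ± 0.06. Sympk, the scaffold symplekin of 3′ end processing, was at 110 ± 3.15 CPM in the control group and 92.2 ± 5.44 CPM in the knockdown group, with -0.25 ± 0.06 on the log2 scale. Exosc5, a core subunit of the RNA exosome, was at 24.4 ± 2.69 CPM in the control group and 18.8 ± 1.57 CPM in the knockdown group, with a log2 fold change of -0.37 ± 0.10. The groups of Rnmt, Sympk and Exosc5 did not overlap, beside 9.65% of all genes. Tob2, which recruits a deadenylase to mRNA, was higher at 27.5 ± 2.47 CPM in the control group and 34.4 ± 2.56 CPM in the knockdown group and 0.32 ± 0.08 on the log2 scale. Upf3a, a factor of nonsense-mediated decay, was not past the threshold, at 33.3 ± 1.78 CPM in the control group and 39.4 ± 2.46 CPM in the knockdown group, with overlapping groups and a log2 fold change of 0.24 ± 0.07.

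The members of mitochondria and the proteasome were higher apart from Htra2. All 4 were past the threshold with edgeR, beside 7.86% of all genes. Ppif, which encodes the cyclophilin of the mitochondrial permeability pore, was at 20.0, 17.8, 19.6, 17.6 and 18.7 CPM in the control SONs and at 30.2, 28.7, 25, 31.6 and 27.0 CPM in the knockdown SONs. The groups were separated in full and the log2 fold change was 0.60 ± 0.08. Vdac3, a channel of the outer mitochondrial membrane, had 179, 200, 184, 148 and 193 CPM under control and 251, 247, 260, 261 and 223 CPM under Creb3l1 shRNA. Control SON 4 was the lowest, knockdown SON 5 the lowest of its group and still above all controls, and the log2 fold change of Vdac3 was 0.46 ± 0.09.

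Psmc5, an ATPase of the proteasome cap, was at 186 ± 13.7 CPM in the control group and 238 ± 19.5 CPM in the knockdown group (SD, n = 5 each), with groups that did not overlap and a log2 fold change of 0.36 ± 0.08. Htra2, a serine protease of the space between the mitochondrial membranes, was at 50.3 ± 5.32 CPM in the control group and 39.6 ± 2.83 CPM in the knockdown group. Knockdown SON 5 of Htra2 was higher than 1 control SON, and the log2 fold change was -0.34 ± 0.09.

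The kinase and trafficking members were even in direction. The groups of all 4 did not overlap, beside 9.65% of all genes. With edgeR, Map3k10 and Gsk3a were past the threshold, beside 7.86% of all genes. Map3k10, a mixed-lineage kinase upstream of JNK, was at 99.7, 134, 108, 137 and 131 CPM in the control SONs and at 81.8, 86.6, 96.5, 68.2 and 65.1 CPM in the knockdown SONs. Control SON 1 and knockdown SON 3 came nearest to each other, and the log2 fold change was -0.62 ± 0.13. Stk11, the kinase that activates AMPK, was at 94.3 ± 2.21 CPM in the control group and 83.6 ± 3.84 CPM in the knockdown group, with a log2 fold change of -0.17 ± 0.06.

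Gsk3a, a kinase of insulin and Wnt signalling, had 98.7, 124, 103, 103 and 114 CPM under control and 168, 160, 150, 153 and 137 CPM under Creb3l1 shRNA. Its groups were separated by a gap, and the log2 fold change was 0.50 ± 0.08. Rab11b, a small GTPase of recycling endosomes and the only named member of the KEGG list Vasopressin-regulated water reabsorption, was at 171 ± 11.5 CPM in the control group and 214 ± 22.1 CPM in the knockdown group, with a log2 fold change of 0.32 ± 0.09.

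By KEGG list, 25 of the 27 lists had a named member, and the lists Citrate cycle and Basal transcription factors had none. The 6 named of 41 genes in Protein processing in endoplasmic reticulum were 2 lower and 4 higher, with a median log2 fold change of 0.25. The 4 named of 33 genes in Spliceosome had a median of 0.25 and none was lower. RNA transport had 5 named of 35 genes, of which Xpot and Rpp38 were lower and Upf3a, Ddx39b and Eif3g higher. The mRNA surveillance list had 4 named of 20 genes, 2 in each direction. RNA polymerase had 3 named of 7 genes, 2 lower and 1 higher, with a median of -0.60. Ribosome had 1 named of 44 genes, Rps2, so the list is not described further.

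The disease lists repeat the same genes. The list Pathways of neurodegeneration had 7 named of 53 genes, of which Map3k10, Eif2ak3 and Htra2 were lower and Psmc5, Hspa5, Vdac3 and Ppif higher. Psmc5, Vdac3 and Ppif are also the 3 higher members on the lists for Huntington disease and Alzheimer disease, and the only named members of Spinocerebellar ataxia, where the median was 0.46. Eif2ak3 was on 9 lists, the most of any member, and 22 members were on 1 list. Eif2ak3 was beside Htra2 on Apoptosis and beside Stk11 on Autophagy, and the named members of these lists were lower. With 34 of 310 listed genes named, and these chosen by the knockdown contrast, a count describes the named genes and not the pathway.

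**Figure D4:**
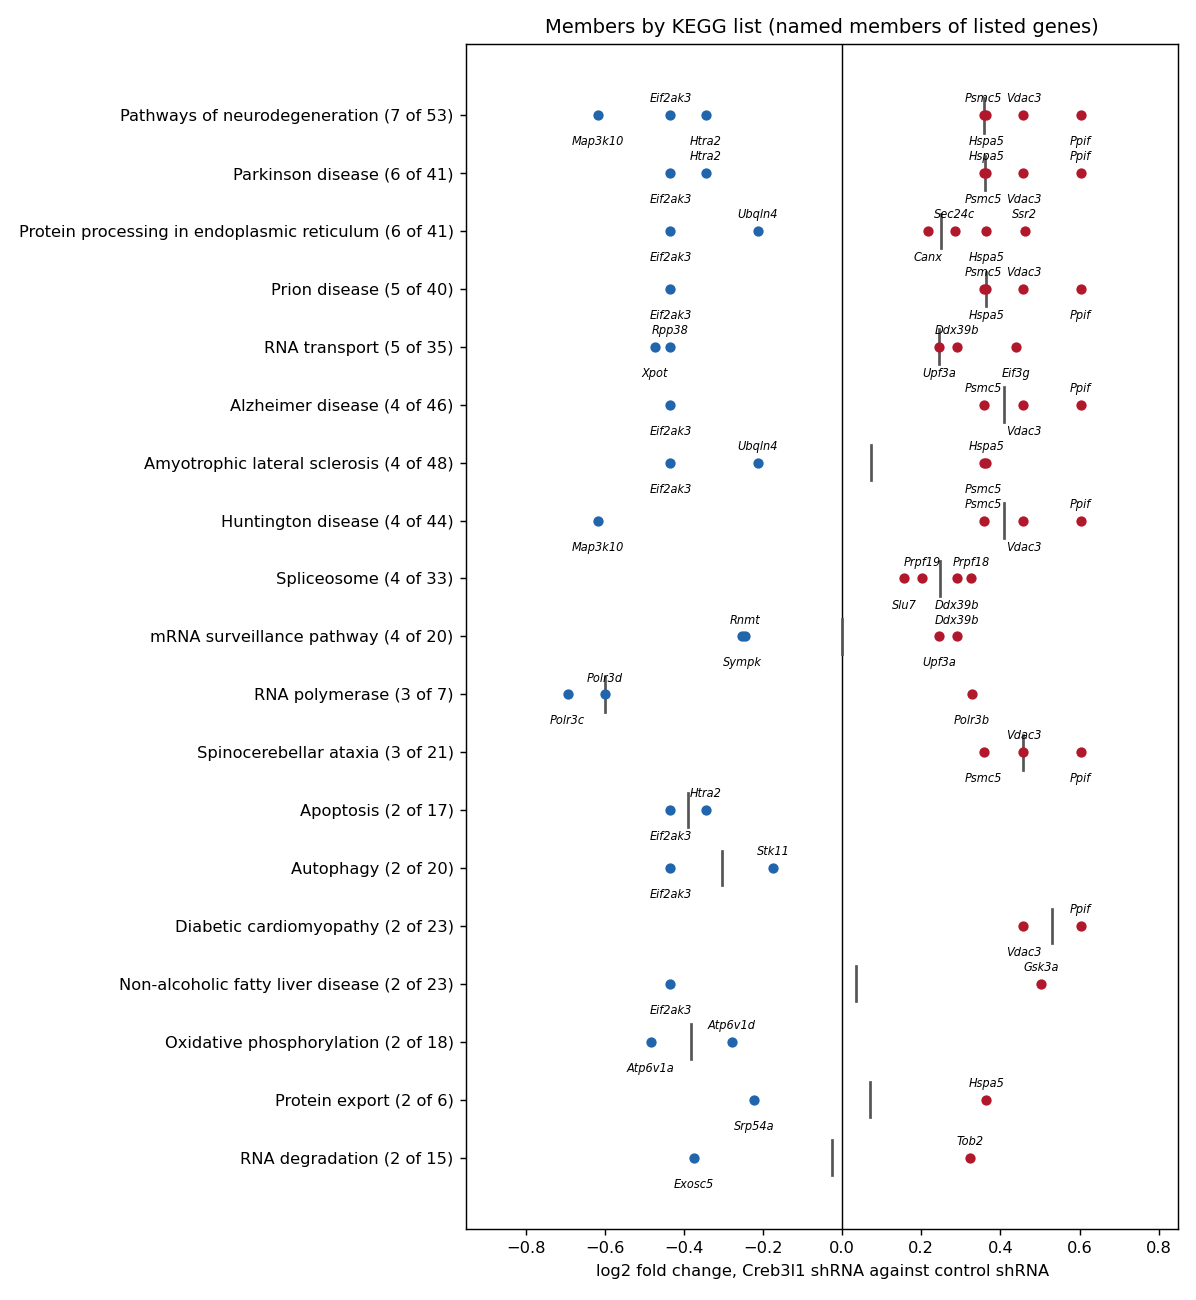
Log2 fold change, Creb3l1 shRNA against control shRNA, of the members on each KEGG list with at least 2 named members, with the named and listed numbers in brackets. Points are members (blue lower, red higher) and the vertical tick is their median. Named members of Spliceosome, Spinocerebellar ataxia and Diabetic cardiomyopathy were all higher, those of Apoptosis, Autophagy and Oxidative phosphorylation all lower, and the other lists were mixed.

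The spread among SONs differed between members. The coefficient of variation within a group ran from 2.16% to 25.4%, with a median of 7.45%. By animal, the median log2 difference of the 17 lower members was -0.40, -0.46, -0.35, -0.22 and -0.36 in animals 1 to 5, and that of the 17 higher members was 0.27, 0.30, 0.28, 0.42 and 0.27. Animal 4 had the smallest median difference of the lower members and the largest of the higher members. For 12 members the ChIP-seq peak at the promoter was also assigned to another gene, so the binding cannot be given to 1 gene. Among them were Atp6v1d with Eif2s1, Ubqln4 with Lamtor2, Hars2 with Hars, Polr3c with Rnf115 and Exosc5 with Bckdha. How reads of overlapping or neighbouring genes were split depends on the strand setting of the counting, which is not given in the sources used here.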

How the data were processed

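Poly(A) RNA of 5 control and 5 Creb3l1 knockdown SONs was measured by stranded paired-end sequencing. After quality trimming and alignment to Rn6 with STAR, the authors used featureCounts to count reads and deposited the raw counts per Ensembl gene without normalisation. The submitters' processing notes also name CASAVA, FastQC and DESeq2 1.28.1. The treatment of multi-mapping reads is not given in the sources used here, and coordinates of Rn6 were not used.

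Counts were analysed here with edgeR 4.0.16 in R 4.3.3. The function filterByExpr (minimum count 10) kept 16286 of 24286 genes with at least 1 count, TMM factors were 0.956 to 1.07, and the quasi-likelihood test with Benjamini-Hochberg adjustment over all genes tested used all 10 SONs with no covariate, as the study's methods give none. The standard error is the fold change divided by the root of its F value. Tests were tried on simulated data with known changes. Every pair of replicates differed beyond sampling noise (chi-square per degree of freedom of at least 29.5). The left and right SON of the same number come from 1 animal, as the labels give. Within an animal, departures from the group mean correlated between sides at -0.12, 0.45, -0.44, -0.32 and -0.55 over genes in animals 1 to 5, with a mean of -0.20 against 0.05 for the 20 pairs of different animals.

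Members were chosen by a rule that used the knockdown contrast, and the members, role lists and tests were chosen with earlier results of these data known. All members are named. Values in every SON are given for Creb3l1, for Eif2ak3, Hspa5, Canx, Ssr2, Sec24c, Ubqln4 and Rps2, for the 6 members with the largest fall and the 6 with the largest rise, and for all RNA polymerase III and vacuolar ATPase members. Genes that are no member are named if a list of related complexes or markers, or a shared promoter peak, holds them. Alternatives were DESeq2 1.42.0, a replicate block, scaling with RLE factors or by library size alone, no filter, at least 10 counts in every SON, and leaving out each SON. Whole KEGG lists were not analysed here, since 276 of 310 genes had no identifier. No gene set test was run.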

Additional observations from a re-analysis of the deposited data

Results flagged for a closer look

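In 4 of 70 groups of 5 SONs, each a group of Creb3l1 or of 1 member, 1 SON stood apart by Dixon's criterion for 5 values (0.71), and chance sets apart about 1 in 20 groups. Atp6v1a in control SON 1 was at 416 CPM, below the other control SONs at 515 to 547 CPM. Htra2 in knockdown SON 5 was at 44.6 CPM, above the others at 37.8 to 38.8 CPM. Polr3d in knockdown SON 3 was at 32.0 CPM, above the others at 24.8 to 25.9 CPM. Rps2 in knockdown SON 4 was at 0.541 CPM, below the others at 0.965 to 1.14 CPM. The 4 SONs set apart came from 4 different animals. What set them apart was not tested.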

How the results depend on the processing

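Calls past the threshold over all genes numbered 1280 with edgeR, 2190 with DESeq2 and 9 with the replicate block, which pairs the SONs of an animal, and ranged from 519 to 1699 when 1 SON was left out. Among the members the count was 18 with edgeR, 34 with DESeq2, 0 with the replicate block, 11 with no filter on low counts, where the count over all genes was 950 (3.91%, against 7.86%), and 4 to 20 when 1 SON was left out, where 3.17% to 10.3% of all genes were called. The log2 fold change of Creb3l1 was -1.16 and in the replicate block -1.21 (edgeR, adjusted p = 0.0586, against 0.0173), with a range of -1.33 to -1.02 when 1 SON was left out. The cause of these changes was not tested. For the 34 members and 4 other named genes, 604 of 608 recomputed fold changes moved by less than the SD within groups and 0 changed sign. The 4 that moved more were under library size only, with Ddx39b at 0.23, Rnmt at -0.31, Slu7 at 0.09 and Stk11 at -0.24. The count for all KEGG genes with an identifier is the count for the members, since no other listed gene had one. At depths of at least 29020948 counts, Rps2 alone among the members had under 100 counts in a SON.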

Other observations

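RGD1304624, the only gene with an identifier among the 12 genes that share a promoter peak with a member, is named beside Srp54a. RGD1304624 was at 5.61, 5.10, 5.60, 4.81 and 5.16 CPM in the control SONs and at 3.44, 3.19, 3.30, 3.71 and 3.26 CPM in the knockdown SONs, lower in each knockdown SON than in any control SON, with a log2 fold change of -0.64 ± 0.11. Srp54a was lower in the same SONs, with a log2 fold change of -0.22 ± 0.06. Both genes were chosen by the knockdown contrast, and whether reads of one were counted for the other was not tested.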
